A study of Mus musculus with 2 samples.

Results

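Mesp1, Mesp2, Mixl1, Gsc, Msgn1 and Evx1 are genes that are switched on in the primitive streak and the early mesoderm of the mouse embryo. Binding of Tcf3 along their promoters was read from every non-control probe that the array annotation assigns to one of these symbols. This gave 214 of 474380 probes and 6 of 17032 genes, and 0 of these probes carried a joint name with a neighbouring gene. The chromatin came from E14, a mouse embryonic stem cell line grown without feeder cells, for which the labels name no mutation, agent or time point. DNA immunoprecipitated with Tcf3, as the sample titles name it, was labelled with Cy5 and set against input DNA labelled with Cy3 on 2 promoter arrays. Array 1 carried Mesp1 (35 probes), Mesp2 (34), Mixl1 (24) and Evx1 (46), and array 2 carried Gsc (45) and Msgn1 (30). The arrays have 0 probes in common, so each gene was measured on 1 array, with neither a replicate nor a control immunoprecipitation, and precision is limited by the number of arrays. No test between samples could be made.

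Tcf3, now named Tcf7l1, is the Tcf/Lef factor that is most abundant in mouse embryonic stem cells and is mostly known there as a repressor. Tcf/Lef factors bind DNA at short elements of the form CTTTGAT or CTTTGTT, and Wnt signalling through beta-catenin relieves or replaces them on target genes. Wnt, Nodal and Bmp signals together induce the primitive streak, the site at which cells of the early embryo leave the epiblast to become mesoderm and endoderm. Mesp1, Mesp2 and Msgn1 encode basic helix-loop-helix factors. Mesp1 marks the first mesoderm and the forerunners of the heart, Mesp2 sets the boundaries of the somites, and Msgn1 drives the presomitic mesoderm. Mixl1, Gsc and Evx1 encode homeobox factors of the streak. Mixl1 acts in mesendoderm, Gsc in the organizer at the front of the streak, and Evx1 in its posterior part.

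The sequences that carry the results are shown first. Promoter sequences of 5 of the 6 genes were searched, and those of Mesp1 and Msgn1 held the letters CTTTGAT or CTTTGAA; capitals mark these letters on either strand. They are from RefSeq in build GRCm38.p6, at chr7:79793541-79793840 for Mesp1 and chr12:11208899-11209198 for Msgn1, both on the minus strand and written 5′ to 3′ along the gene, from 250 bases before the transcription start to 50 after it.
Mesp1 promoter: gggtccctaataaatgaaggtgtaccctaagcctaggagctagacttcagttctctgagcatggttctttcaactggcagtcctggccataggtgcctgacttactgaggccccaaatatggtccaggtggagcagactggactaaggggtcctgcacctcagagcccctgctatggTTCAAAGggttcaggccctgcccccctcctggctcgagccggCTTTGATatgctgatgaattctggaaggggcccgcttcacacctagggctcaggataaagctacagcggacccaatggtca
Msgn1 promoter: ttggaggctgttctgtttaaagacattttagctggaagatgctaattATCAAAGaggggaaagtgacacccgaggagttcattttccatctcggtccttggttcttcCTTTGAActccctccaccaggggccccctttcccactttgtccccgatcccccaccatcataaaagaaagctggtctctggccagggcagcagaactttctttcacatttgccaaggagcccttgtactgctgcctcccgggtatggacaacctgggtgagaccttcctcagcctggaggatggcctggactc

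The probes below are those of the highest stretches of Mesp1 and Evx1, the GC-rich probe with the highest value of Mesp2, and the probe of Msgn1 with the brightest signal. They are written 5′ to 3′ as the array annotation gives them, and the probes whose strand could be settled by a match to a promoter, 10 of 10, read along the plus strand of the chromosome. Capitals in the Msgn1 probe mark a run of alternating A and C.
Mesp1 probe 12: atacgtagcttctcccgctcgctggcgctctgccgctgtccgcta
Mesp1 probe 13: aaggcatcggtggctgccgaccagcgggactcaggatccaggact
Mesp1 probe 14: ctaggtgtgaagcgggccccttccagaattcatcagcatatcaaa
Evx1 probe 38: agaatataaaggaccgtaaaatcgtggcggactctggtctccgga
Evx1 probe 39: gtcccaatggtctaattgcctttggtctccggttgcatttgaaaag
Evx1 probe 40: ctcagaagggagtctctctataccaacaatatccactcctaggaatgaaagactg
Mesp2 probe 24: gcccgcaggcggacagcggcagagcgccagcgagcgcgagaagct
Msgn1 probe 21: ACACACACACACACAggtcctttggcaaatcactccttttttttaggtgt

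Each probe is given as the log2 ratio of the immunoprecipitate over the input, centred on the median of its array, so that 0 is the level of the typical probe. A set joins a probe to the closest probe on either side of it, and its SD is over those 2 or 3 probes, which are not replicates. A probe was called when its set mean and its single values were both unlikely under the scatter of the lower side of the array. The array software wrote a surrogate value for signals no brighter than background. The calls and the highest set of each gene are also given for spots measured in both channels, and for those spots after the median log ratio of probes of like GC content was subtracted. Other values are for all spots unless another setting is named. The immunoprecipitate was well above background in 69.1% of array 1 probes and 48.1% of array 2 probes, and the input in 97.8% and 92.0% of them. Of the probes of the 6 genes, 117 of 139 were measured in both channels on array 1 and 40 of 75 on array 2.

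Mesp1 and Evx1 were enriched in the immunoprecipitate in each of the 3 settings. With all spots, these 2 of 6 were the genes called, against 12.9% of all genes (2192 of 17032). Both lie on array 1, where 2 of 4 were called against 22.0% of all genes there. On array 2 the count was 0 of 2, against 3.56% of all genes there. With measured spots Mesp2 and Msgn1 were called as well, 4 of 6 against 13.2% of all genes. These were 3 of 4 on array 1, against 15.9% of all genes there, and 1 of 2 on array 2, against 10.5%. After subtraction of the GC trend Mesp1, Evx1 and Msgn1 were called, 3 of 6 against 12.9% of all genes. These were 2 of 4 on array 1, against 18.6%, and 1 of 2 on array 2, against 7.01%. Gsc and Mixl1 were called in 0 of these 3 settings. With 6 genes and no replicate, these counts were not tested against the background. A gene with more probes has more occasions to be called, and the background was not matched for probe number.

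The highest set mean of a gene gives its strongest stretch, whether called or not. Its median over the 6 genes was 1.81, with a range of 1.17 to 2.26, against a median of 1.15 over all genes. With measured spots the median was 1.45 against 0.98 over all genes, and with the GC trend subtracted it was 1.49 against 0.85. The medians over all genes pool both arrays. With all spots, genes with at least 10 probes had a median of 1.23 on array 1, which carries 4 of the 6, and 1.09 on array 2. A highest value tends to rise with the number of probes. The 6 of 17032 genes held 214 of 474380 probes, and probe number was not matched. Of the single probes on array 1, 29 of 139 (20.9%) stood at 1 or more, against 16.1% of all probes there. On array 2 the number was 13 of 75 (17.3%), against 17.7% of all probes there. With measured spots these were 28 of 117 (23.9%) on array 1, against 14.8% of all measured probes there, and 9 of 40 (22.5%) on array 2, against 13.8%. Called probes made up 5.04% of the probes of the 4 genes on array 1 with all spots, against 2.11% of all probes there.

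**Figure D1:**
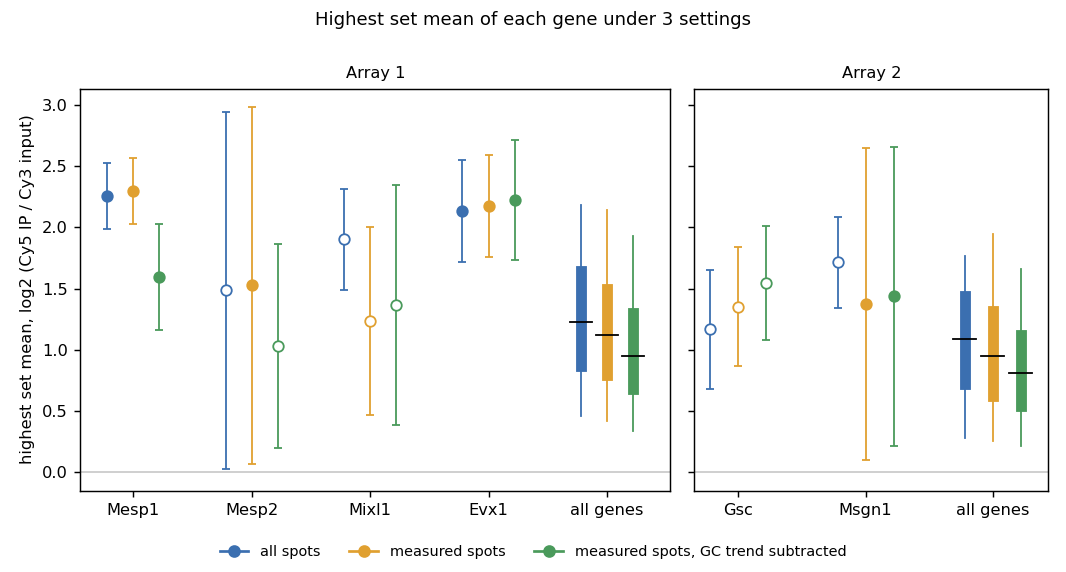
Highest set mean of each gene (log2 of Cy5 immunoprecipitate over Cy3 input) with all spots, measured spots, and measured spots after subtraction of the GC trend. Circles are the 6 genes, filled where the gene was called, with bars of 1 SD over the probes of the set; for all genes with at least 10 probes on the array, the thick bar spans the quartiles, the thin bar the 5th to 95th percentile, and the black line is the median. Mesp1 and Evx1 are filled in all 3 settings, and Gsc and Mixl1 in 0.

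Mesp1 had its enrichment on the transcription start itself. The 3 called probes 12, 13 and 14 stood at 2.56, 2.06 and 2.14, centred 306 and 116 bp after the start and 8 bp before it. Their processed signals were 19015, 4529 and 3787 in the immunoprecipitate, against 3809, 1280 and 1015 in the input. The set mean was 2.26 ± 0.27 (SD over 3 probes), a 4.77-fold ratio to the input relative to the typical probe. The high stretch was narrow: the probes on either side, 459 bp after and 140 bp before the start, stood at 0.91 and 0.81, and the next one upstream, 277.5 bp before the start, at -0.19. The 3 probes cover 359 bp, from 75661868 to 75662226 of chromosome 7 in the coordinates of the array, for which the labels and file headers state no build.

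Over its 35 probes Mesp1 ran from -1.17 to 2.56 with a median of 0.03, and 5 of them stood at 1 or more. The other 2 of these 5 lay further upstream, with neighbours below 1: probe 24, measured in both channels, at 1.43 and probe 21, with a surrogate signal, at 1.64. The highest set lay at the 96.1st percentile of 8168 genes of array 1 with at least 10 probes. The set centred on the probe nearest to the start averaged 1.67 ± 0.75 (SD over 3 probes), the 96.3rd percentile of 4562 genes on array 1 with a placed start, whose median was 0.53. The probes of the highest set are rich in G and C, with a mean of 59.3%, and probes of the same GC content were themselves high on array 1. Subtraction of that trend lowered the highest set to 1.59 ± 0.43, the 88.0th percentile, with 2 probes still called. Probe 14 then stood at 2.00, and probes 12 and 13 at 1.63 and 1.14. Probe 14 spans the start and has 48.9% GC, where the median of measured probes was 0.18.

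Mesp2 lies next to Mesp1 on chromosome 7, with the starts 17260 bp apart in the array coordinates, and its start showed no such enrichment. The set at the start of Mesp2 averaged -0.22 ± 0.63 (SD over 3 probes), the 8.29th percentile of the genes of array 1. The highest set, centred 448 bp after the start, averaged 1.49 ± 1.46 and rested on 1 probe. Probe 24 stood at 3.14, the highest value among all 214 probes, with processed signals of 2690 in the immunoprecipitate and 360 in the input. Its neighbours 149.5 and 608 bp after the start stood at 0.41 and 0.91. Probe 24 holds 75.6% G and C, and the median of measured probes of that GC content on array 1 was 1.60.

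With all spots Mesp2 was not called, with measured spots it was called through this 1 probe, and after subtraction of the GC trend it was not called. The probe then stood at 1.59, and the highest set moved to 3992 bp before the start with a mean of 1.03 ± 0.83 (SD over 2 probes). The 34 probes of Mesp2 ran from -1.32 to 3.14 with a median of -0.17, and 15 of 34 were above 0. With all spots 5 of them stood at 1 or more, all but probe 24 before the start. These were probe 4, with a surrogate signal, at 1.61, and the measured probes 6, 11 and 17 at 1.36, 1.05 and 1.34. The part of GC content in the value of probe 24 was not tested beyond this subtraction. Read on the opposite strand, Mesp1 probe 12 holds nearly the same letters as most of Mesp2 probe 24, as printed above. Whether either of these probes reads its own gene alone was not tested.

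Msgn1 differed from Mesp1 in where its signal lay. Its start was flat: the set there averaged -0.12 ± 0.17 (SD over 3 probes), the 23.2nd percentile of 4126 genes of array 2, whose median was 0.26. The highest set lay upstream, centred 1669.5 bp before the start. Its probes 19, 20 and 21 stood at 1.29, 1.86 and 1.99, with a set mean of 1.71 ± 0.37, the 94.0th percentile of 8059 genes of array 2. Probe 19 had a surrogate signal in the immunoprecipitate.

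The upstream set of Msgn1 was not called with all spots. It was called with measured spots, where the set of probes 18, 20 and 21 averaged 1.37 ± 1.28 (SD over 3 probes), and after subtraction of the GC trend, at 1.44 ± 1.22. In these 2 settings it lay at the 77.6th and the 90.1st percentile of array 2. Probe 21 had processed signals of 87937 in the immunoprecipitate and 22610 in the input, and its input was brighter than that of 99.9% of the probes of array 2. It opens with the run of A and C printed above, which probes of array 2 hold with the letters ACACACAC on either strand in 0.430% of cases. Of those probes 18.8% had an input among the brightest 1% of the array, and their median log ratio was 0.61. Without the brightest 1% of inputs, an alternative chosen after seeing the data, Msgn1 was not called with measured spots and its highest set mean was 0.45. With all spots it was then 0.96. Probe 21 is the probe of its set that this leaves out, so the call of Msgn1 rests on it.

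**Figure D2:**
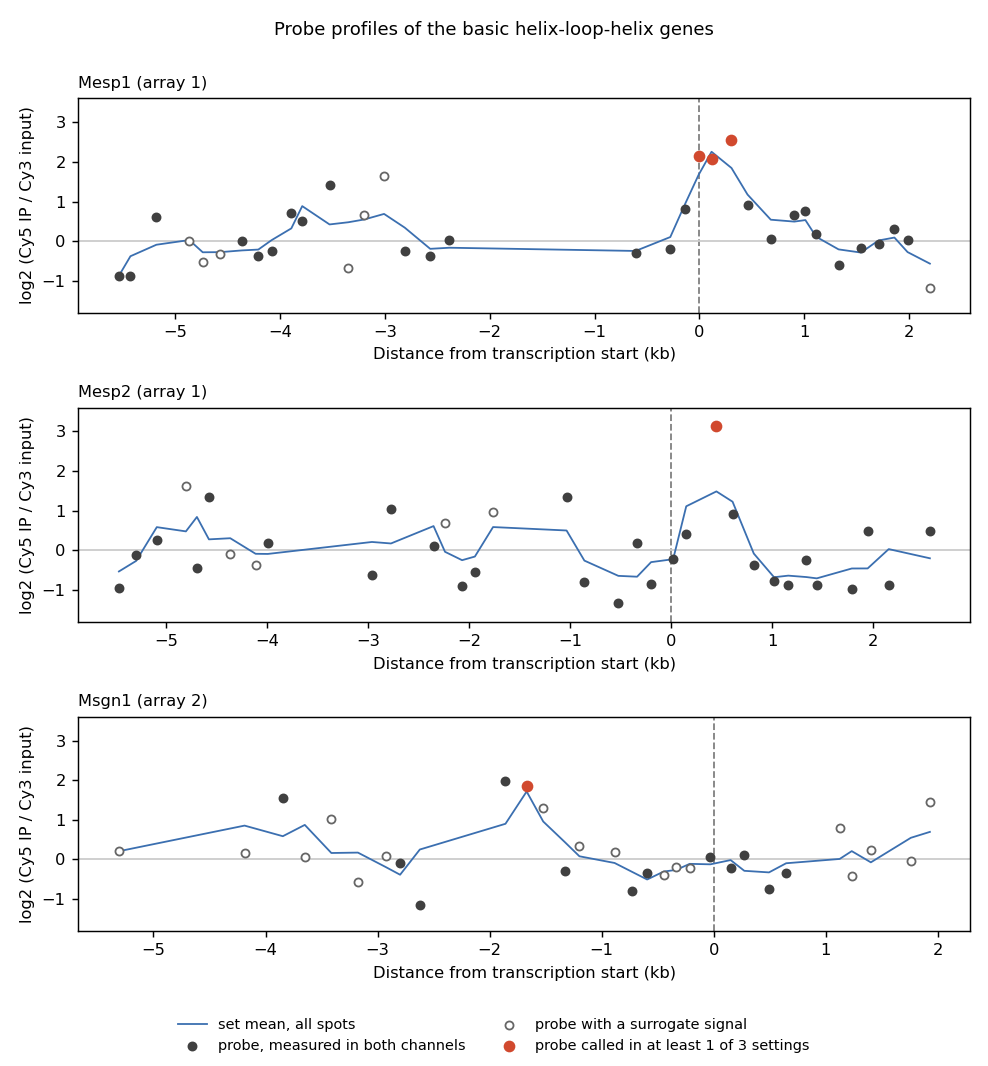
Log2 ratio of immunoprecipitate over input for each probe of Mesp1, Mesp2 and Msgn1 against its distance from the transcription start in kb (negative is upstream along the gene). Filled points were measured in both channels, open points carry a surrogate signal, red points were called in at least 1 of 3 settings, the line is the set mean and the dashed line the start. The 3 red points of Mesp1, at 2.06 to 2.56, sit at the start, whereas the red point of Mesp2 stands alone at 3.14 and that of Msgn1 lies 1669.5 bp upstream.

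Evx1, the homeobox gene of the posterior streak, had 4 called probes with all spots, more than any of the other genes. Its highest set lay inside the gene, centred 1334.5 bp after the start, where probes 38, 39 and 40 stood at 1.93, 2.61 and 1.85. Their processed signals were 3126, 5707 and 2164 in the immunoprecipitate, against 969, 1101 and 707 in the input. The set mean was 2.13 ± 0.42 (SD over 3 probes), a 4.39-fold ratio relative to the typical probe and the 93.0th percentile of array 1. A run of 4 neighbouring probes stood at 1 or more over 533 bp. The probe after this run, 1707.5 bp from the start, stood at 0.03.

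A further called probe of Evx1, probe 9, lay 3788 bp before the start at 2.63, with 2967 in the immunoprecipitate and 566 in the input, and its neighbours stood at 1.29 and 0.76. The start itself was not high, with a set mean of 0.60 ± 0.29 (SD over 3 probes), the 54.8th percentile. In all, 14 of 46 probes of Evx1 stood at 1 or more. The median over all its probes was 0.27, the 82.3rd percentile of array 1, and 0.55 with measured spots, the 96.1st percentile.

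The probes of the Evx1 set held 46.1% G and C on average, against 59.3% in the Mesp1 set, and measured probes of like GC content had medians between -0.23 and 0.18. Subtraction of the GC trend left the set at 2.22 ± 0.49 with 4 probes of the gene called, as before, and raised its percentile to 98.0. All 3 probes were measured in both channels.

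Gsc, the organizer gene, showed modest values over much of its promoter and no called probe. Its 45 probes ran from -0.87 to 1.92 with a median of 0.16, and 29 of 45 were above 0. The highest set, centred 1913.5 bp before the start, held probes 24, 25 and 26 at 0.82, 0.96 and 1.72, a mean of 1.17 ± 0.49 (SD over 3 probes) at the 55.4th percentile of array 2. With measured spots and the GC trend subtracted the same set averaged 1.55 ± 0.47, the 92.9th percentile, and was still not called. The highest single probe, 1247 bp before the start, stood at 1.92 with 4764 in the immunoprecipitate and 1286 in the input, but its neighbours stood at -0.19 and -0.03. The set at the start averaged 0.30 ± 0.86, the 53.1st percentile.

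Mixl1 had its highest set at the edge of its tiled region. Probes 23 and 24 stood at 1.61 and 2.19, a mean of 1.90 ± 0.41 (SD over 2 probes), the 85.6th percentile of array 1. Probe 24 carried a surrogate in both channels, 172 in the immunoprecipitate against 44.4 in the input, so its ratio and this set mean are not measured values. With measured spots only, the highest set was another one, at 180679269 to 180680193 of chromosome 1 in array coordinates. That set had a mean of 1.23 ± 0.77 (SD over 2 probes), the 58.4th percentile of array 1. Its higher probe, probe 22, stood at 1.74 and opens with the letters ACACACACA, and its input was brighter than that of 98.6% of the array. A separate GC-rich stretch, probes 7 to 9, stood at 1.22, 0.96 and 0.90, and after subtraction of the GC trend at 0.78, 0.14 and -0.21. A transcription start was not placed for Mixl1.

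**Figure D3:**
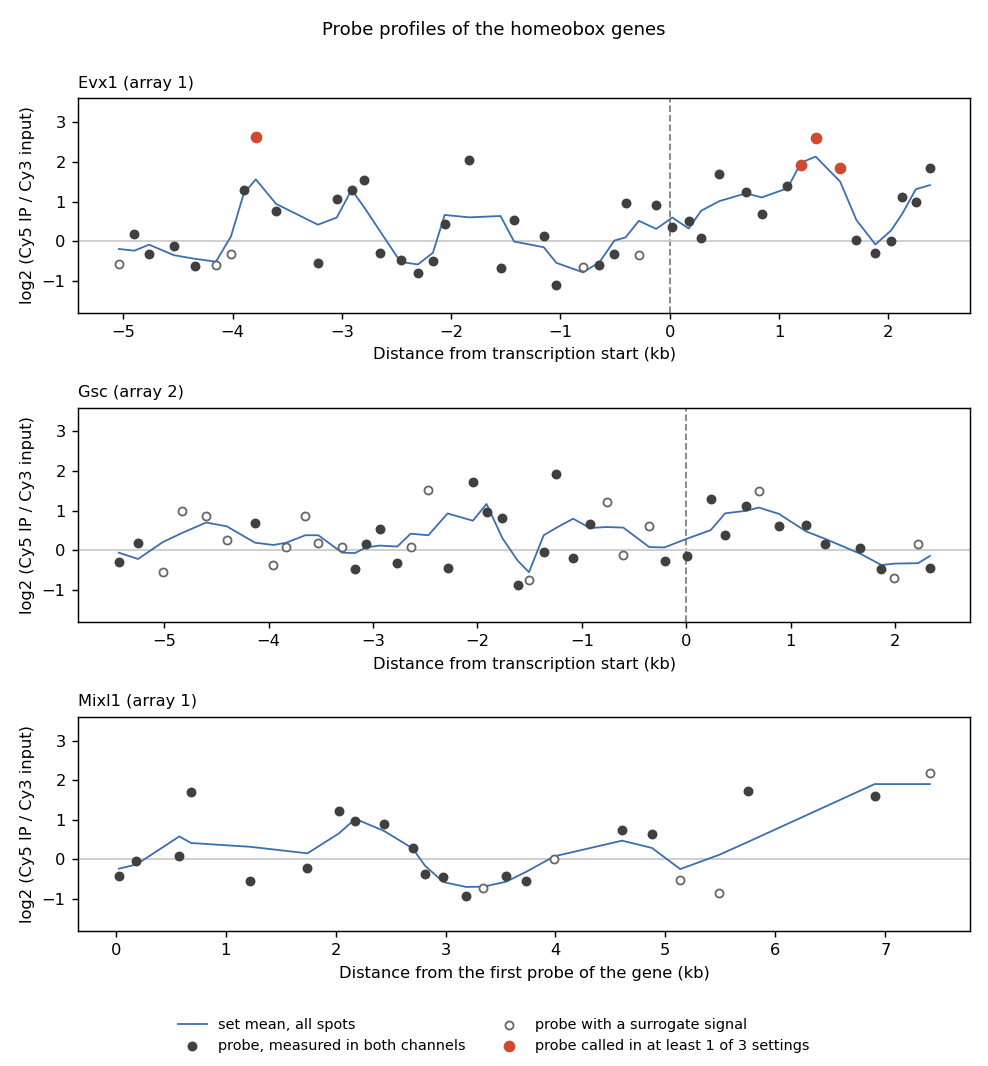
Log2 ratio of immunoprecipitate over input for each probe of Evx1 and Gsc against the distance from the transcription start in kb, and of Mixl1 against the distance from its first probe, with symbols for measured, surrogate and called probes, the set mean as a line and the start as a dashed line. The called probes of Evx1 lie 3788 bp upstream and 1200 to 1559 bp downstream of its start; Gsc and Mixl1 have 0 called probes.

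The GC content of the probes was set against the log ratios of both arrays because it bears on Mesp1 and Mesp2. The 6 genes had a median probe GC content of 45.1% on array 1 and 40.7% on array 2, against 40.4% over all probes of either array. On both arrays the median log ratio of measured probes was above 0 for probes rich in G and C, and below 0 around 40% GC. It was 0.97 for array 1 probes like Mesp1 probes 12 and 13. Probes poor in G and C were also above 0, with medians of 0.49 on array 1 and 0.99 on array 2 at 28 to 30% GC. After subtraction the 3 probes of the Evx1 set stood at 1.79, 2.76 and 2.12, and the 3 of the Mesp1 set at 1.63, 1.14 and 2.00. Msgn1 probes 20 and 21 stood at 1.79 and 2.44, and Mesp2 probe 24 at 1.59.

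**Figure D4:**
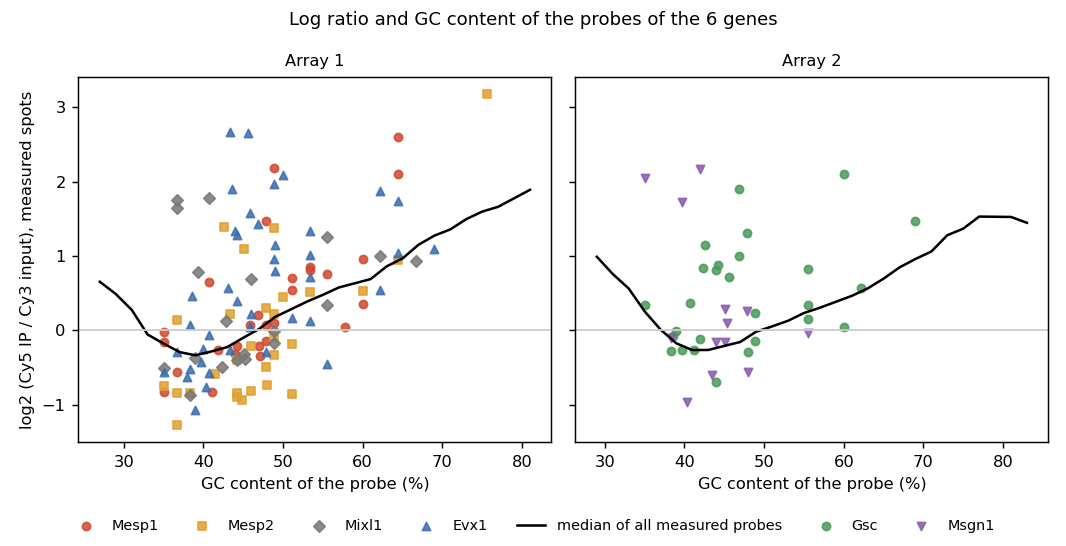
Log2 ratio of immunoprecipitate over input of the measured probes of the 6 genes against the GC content of the probe in percent, for array 1 and array 2, with the median of all measured probes per 2% of GC as a line. The 2 highest points of Evx1 have 43.4% and 45.7% GC, whereas the highest points of Mesp1 and Mesp2 have 64.4% and 75.6% GC.

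The highest sets lay at different places in the genes. With all spots, of the 5 genes with a placed start, Mesp1 (116 bp) and Mesp2 (448 bp) had the centre of the highest set within 500 bp of it, Evx1 had it further downstream, and Msgn1 and Gsc had it upstream. Among 4566 genes of array 1 the highest set lay within 500 bp in 36.2%, further downstream in 27.3% and further upstream in 36.5%. Among 4127 genes of array 2 these shares were 26.2%, 30.6% and 43.2%. With measured spots the share within 500 bp was 46.8% on array 1 and 48.0% on array 2, and after subtraction of the GC trend 25.9% and 32.2%, where the highest set of Mesp2 no longer lay there. The set at the start of Mesp1 averaged 1.67, 1.71 and 1.20 in the settings of all spots, measured spots and GC trend subtracted, against medians of 0.53, 0.58 and 0.23 over the genes of array 1. That of Evx1 averaged 0.60, 0.64 and 0.32, and that of Mesp2 -0.22, -0.18 and -0.38. On array 2 that of Gsc averaged 0.30, 0.48 and 0.06 and that of Msgn1 -0.12, 0.02 and 0.06, against medians of 0.26, 0.42 and 0.20 over its genes.

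The letters of the Tcf/Lef element were searched on both strands. CTTTGAT stood in the promoters of Mesp1 and Msgn1, 2 of 5, against 3.73% of 32851 RefSeq promoters of the same length, and CTTTGAA in the same 2, against 5.14%. CTTTGTT and CTTTGTA were in 0 of 5, against 5.85% and 3.63% of all promoters. In Mesp1, CTTTGAT lay 31 to 25 bases before the start, at the edge of the high probe 14 printed above, which ends inside it. CTTTGAA read on the other strand there 73 to 67 bases before the start. In Msgn1, CTTTGAT lay on the other strand 203 to 197 bases before the start, within probe 11, which stood at -0.22 and had a surrogate signal. The same letters thus lay across the edge of a high probe in Mesp1. In Msgn1 they lay in a probe whose low ratio was not a measured value.

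Among the probes themselves, 5 of 214 (2.34%) held CTTTGAT, against 1.11% of all 474380 probes. They were probes 9 and 18 of Mixl1, at 0.90 and 0.75, probe 27 of Mesp1, at -0.26, and probes 1 and 11 of Msgn1, at 1.44 and -0.22, both with a surrogate signal. CTTTGTT was in 3 probes, CTTTGAA in 3 and CTTTGTA in 4. Of the 17 probes in the highest sets of the 6 genes, 0 held any of these letters in full. CGGCGGC, the letters of a GC-rich element searched for comparison, was in 0 of 214 probes, against 0.151% of all probes. It stood in the promoter of Gsc, and in 10.1% of all promoters. A match describes these letters in these windows, and binding at them was not tested.

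Related genes of the streak and mesoderm were read in the same way. Among 17 genes for signals and the organizer, the number called was 3 over all spots, 5 over measured spots and 8 once the GC trend was subtracted, against 12.9%, 13.2% and 12.9% of all genes. Of these 17 genes 12 lie on array 2, where 3.56%, 10.5% and 7.01% of all genes were called. Their median highest set mean was 1.33 with all spots, against 1.15 over all genes. The highest were Lefty2, a Nodal antagonist, at 2.51 ± 0.39 (SD over 3 probes), Nodal itself at 1.99 ± 0.64, and Gdf3, a ligand related to Nodal, at 1.88 ± 0.74. Lefty2 and Gdf3 were called in each of the 3 settings, and Nodal in the 2 with measured spots.

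Among the 3 caudal genes, which pattern the posterior body, Cdx1 reached 2.20 ± 0.65 (SD over 3 probes) and was called in each of the 3 settings. Its highest set lay in probes that the array names jointly for Cdx1 and its neighbour Pdgfrb. Cdx2 stood at 1.74 ± 0.67 (SD over 2 probes) and Cdx4 at 1.37 ± 0.04 (SD over 3 probes), and neither was called with all spots. Measured spots left 11 of 36 probes of Cdx4, and its highest set mean was then 1.25 ± 0.56 (SD over 3 probes). Cdx2 was called with measured spots, so the number called in the 3 settings was 1, 2 and 1 of 3. The shares of all genes were 12.9%, 13.2% and 12.9%. On array 2, which carries 2 of the 3, they were 3.56%, 10.5% and 7.01%. Of the 5 T-box genes analysed, 4 of them on array 1, the number called was 1, 2 and 3 in the 3 settings, against 12.9%, 13.2% and 12.9% of all genes and 22.0%, 15.9% and 18.6% of those on array 1. With all spots Tbx3 was highest at 1.97 ± 0.91 (SD over 3 probes), then Tbx20 at 1.51 ± 0.87 and Tbx5 at 1.39 ± 0.70 (SD over 2 probes). Tbx20 was the gene called there, and Tbx3 and Tbx5 were not called with all spots.

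Among 11 genes of paraxial and presomitic mesoderm, the tissue in which Mesp2 and Msgn1 act, 3, 4 and 5 were called in the 3 settings, against 12.9%, 13.2% and 12.9% of all genes. Of these 11 genes 6 lie on array 1, where 22.0%, 15.9% and 18.6% of all genes were called. The other 5 lie on array 2, where the shares were 3.56%, 10.5% and 7.01%. The median highest set mean of the 11 was 1.15 with all spots, as over all genes. It was 1.14 against 0.98 with measured spots and 1.18 against 0.85 after subtraction of the GC trend. With all spots Tcf15 stood at 2.41 ± 0.87, Foxc1 at 1.98 ± 0.75 and Uncx at 1.59 ± 0.86 (SD over 3 probes). After subtraction of the GC trend Tcf15 stood at 1.37. Of 11 genes of lateral and cardiac mesoderm, the tissue downstream of Mesp1, 6 also lie on array 1 and 5 on array 2. Among them 0 were called with all spots and 2 in each setting with measured spots, against the same 12.9%, 13.2% and 12.9% of all genes. The 2 were Foxf1 and Hand2 before subtraction of the GC trend, and Kdr and Tal1 after it. With all spots Kdr at 1.72 ± 0.43, Mef2c at 1.60 ± 0.20 and Isl1 at 1.53 ± 0.05 were the highest of these (SD over 3 probes). With measured spots, which left 3 of 38 probes of Mef2c and 14 of 42 of Isl1, Mef2c stood at 1.23 and Isl1 at 1.12, below Hand2 at 1.49 and Foxf1, which stood just above Hand2. Evx2, the paralog of Evx1, had a highest set of 2.54 ± 1.73 (SD over 3 probes), in probes named jointly for Evx2 and Hoxd13. Its centre lay at -8658 bp from the start of Evx2 (negative is upstream). Evx2 was called in both settings that used measured spots, but not over all spots.

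**Figure D5:**
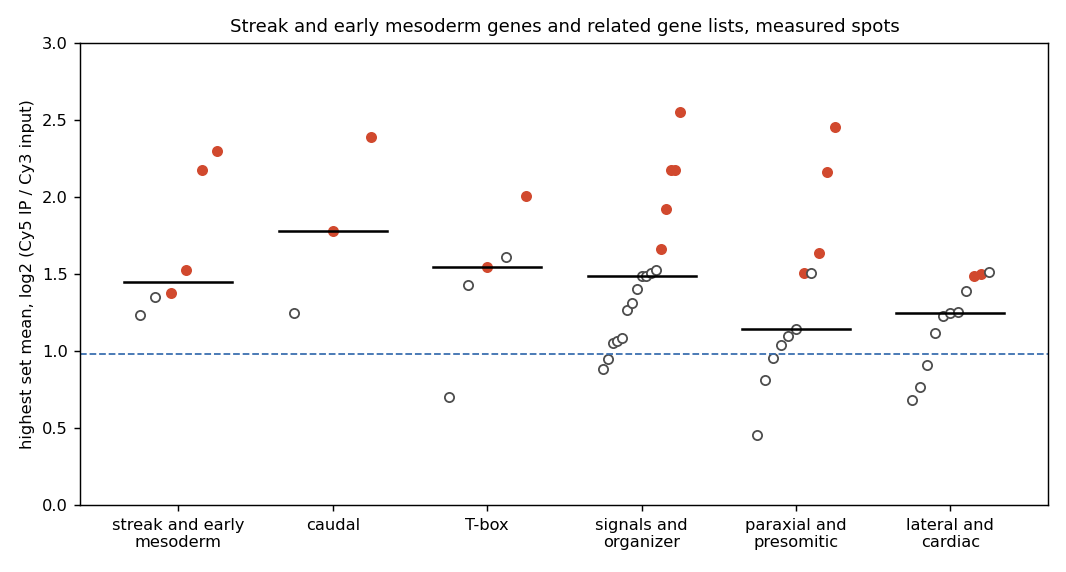
Highest set mean of each gene (log2 of Cy5 immunoprecipitate over Cy3 input) with measured spots, for the 6 streak and early mesoderm genes and 5 lists of related genes. Filled red points were called, the black line is the median of each list and the dashed line the median of all genes, 0.98. The 6 genes have a median of 1.45 and the 11 lateral and cardiac genes one of 1.24.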

How the data were processed

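Chromatin of E14 cells was immunoprecipitated, amplified and hybridised against input on Agilent promoter arrays, per the labels' protocols. The labels list several antibodies, and Tcf3 is taken from the sample titles. The sources do not say whether 1 immunoprecipitate served both arrays. The arrays are numbered in the order of their records.

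Spots were quantified by the authors with Agilent Feature Extraction 9.1.1.1, as the file headers state. Each channel's processed signal is an intensity that the authors deposited after background subtraction and dye normalization, with a surrogate where a signal was not above background, per the file headers. The log10 ratio of Cy5 over Cy3 deposited by the authors was used as an alternative. The series value table, whose scale the authors left unstated, equals the error of that log10 ratio in 243496 of 243496 rows of array 1 and 243486 of 243486 of array 2 (tolerance 1e-06), and was used for nothing else. The authors' own calls, made with a neighbourhood model per the labels, are not used here.

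Here log2 of the ratio of the processed signals deposited by the authors was centred on each array's median, without 9 and 18 non-uniform spots. The scale of no enrichment for single probes came from values below the median (0.72 on array 1, 0.78 on array 2). For set means it came from set means below 0, separately by set size. With all spots it was 0.48 on array 1 and 0.55 on array 2 for sets of 3 probes, and 0.55 and 0.59 for sets of 2. Sets joined a probe to the closest probe on either side within 1000 bp. Calling required an upper-tail normal probability below 0.001 for the set mean. It also required either a probability below 0.001 for the probe and below 0.1 for a neighbour, or below 0.005 for 2 probes of the set. These probabilities are a calling rule, not tests, and a gene was called with any called probe. GC bins were 2% wide. Starts were placed where any probe of a gene matched its RefSeq promoter (GRCm38.p6) letter for letter, with several matches placing it within 10 bp. Each of the 5 placed genes of the report had 2 matching probes. Only distances were used, since the builds may differ.

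The caller and the GC subtraction were tested on simulated data, with independent normal values, planted high stretches and a planted GC trend. Surrogate signals and repeats were not simulated. All 6 genes are named, with the 3 highest genes of each related list. The 6 genes and the lists were chosen with earlier results of these data known. Calculations used Python 3.11.15, numpy 2.4.6, pandas 2.3.3 and scipy 1.17.1, with R 4.3.3 and limma 3.58.1 for normexp (offset 50) and matplotlib 3.10.9 for figures. Of the alternatives, 13 were listed at the outset and 2, which leave out the brightest 1% of inputs, were added after the data were seen. Some genes of this stage are not reported here.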

Additional observations from a re-analysis of the deposited data

How the results depend on the processing

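Over 13 alternatives chosen at the outset and 2 added after seeing the data, Mesp1 and Evx1 were called in each of the 15, with highest set means of 1.59 to 2.30 for Mesp1 and 2.08 to 2.24 for Evx1. The number of the 6 genes called was within 1.5 times the 2 of the report in 11 of 15. It was 4 with measured spots (13.2% of all genes), 4 without dim inputs (12.1%), 5 without the single-probe conditions (18.8%, and 31.4% on array 1) and 6 with normexp background correction, where 8417 of all genes (49.4%) were called. The number of all genes called also changed to 1352 with the deposited log10 ratio, 1398 at a set probability of 0.0001 and 1161 with the scale taken from both sides of the median. The causes of these changes were not tested. Mesp2 and Msgn1 were called in 5 of 15 each, Mixl1 in 2 and Gsc in 1. The highest set mean ranged from 0.73 to 1.54 in Mesp2, 1.02 to 1.91 in Mixl1, 1.17 to 1.61 in Gsc and 0.45 to 1.93 in Msgn1, the last at its lowest without the brightest inputs. The highest set of Mesp1, Evx1 and Gsc stayed in the same place in each of the 15, and that of Mesp2 moved upstream by over 500 bp in the 2 with the GC trend subtracted. No paired analysis was possible because each gene lies on 1 array and no test between samples was made. No replicate could be left out for the same reason. Dim signal limits array 2 most, where 35 of 75 probes of the 2 genes had a surrogate in the immunoprecipitate.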
